A study of Homo sapiens with 8 samples.

Results

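The comparison set hESCs of the line BG01 that had received the MFGE8-neutralizing antibody anti-M8nAb for 24 h against hESCs that had received normal mouse IgG for 24 h. It took in 4 of the 8 RNA-seq libraries of the study, namely those whose labels give the 24 h time point, with 2 libraries a side. BG01 is an established line of human embryonic stem cells, kept here on Matrigel in mTeSR1 medium without feeder cells. Both arms received 5 µg/mL of antibody, the IgG serving as the isotype control, and total RNA was sequenced. The remaining 4 libraries were the same treatments at 12 h, and they entered the fit for its estimate of spread and for the test of whether a response differed between the times. No group without antibody is used here, and all cells came from 1 line. The labels call the libraries biological replicates but do not say that they came from separate cultures, so a p-value here reflects library-to-library spread, which may be technical.

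MFGE8 is a secreted glycoprotein that links membranes to cells. Its EGF-like part carries an RGD motif that binds αv integrins, and its discoidin-like domains bind phosphatidylserine on apoptotic cells, platelets and extracellular vesicles. Engaged integrins pass signals through focal adhesions to kinases such as FAK and AKT and to the actin cytoskeleton, whose tension governs transcription through SRF and through YAP and TAZ. Pluripotent stem cells grow as a tight epithelium, divide quickly with a short G1 phase and depend on FGF and activin signals.

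Levels are given in CPM, a gene's counts relative to the library's total with TMM scaling, in each of the 4 libraries at 24 h. The log2 fold change is that of anti-M8nAb over IgG, and adjusted p-values come from the two-sided quasi-likelihood F test of edgeR over all 20165 genes that passed the filter on low counts. "Rose" and "fell" are used of genes with an adjusted p under 0.05. In bulk RNA, a change in the number of cells of one kind and a change in the RNA per cell cannot be told apart.

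The 4 libraries held between 21010400 and 21792716 counts over genes, so depth was even. They carried the transcripts that define human pluripotent cells. POU5F1, the central pluripotency factor, was at 1309 and 1330 CPM with IgG and at 1570 and 1562 CPM with anti-M8nAb. SOX2 was at 224 and 256 CPM with IgG and at 204 and 196 CPM with anti-M8nAb. NANOG was at 108 and 105 CPM with IgG and at 90.1 and 89.0 CPM with anti-M8nAb. The libraries of the arms did not overlap for any of these 3 factors, and the changes were small. POU5F1 rose (log2 fold change 0.25, SE 0.04, adjusted p = 2.65e-06), while SOX2 and NANOG fell with log2 fold changes of -0.26 and -0.25. The 26 genes of the core pluripotency list summed to 9803 and 9717 CPM with IgG and to 10336 and 10046 CPM with anti-M8nAb. Lists of other cell types varied in their sums. The trophoblast and amnion list summed to 1660 and 1761 CPM with IgG and to 1859 and 1848 CPM with anti-M8nAb. Most of that was the epithelial keratin KRT8, and ELF5 and CGA were at 0 in every library at 24 h. The neuroectoderm list summed to 400 and 416 CPM with IgG and 503 and 470 CPM with anti-M8nAb. The definitive endoderm list summed to 31.4 and 33.4 CPM with IgG and 41.8 and 46.8 CPM with anti-M8nAb, and 9 of its 16 genes, SOX17, GATA4 and GATA6 among them, did not pass the filter. The endothelial and blood list summed to 50.9 and 52.3 CPM with IgG and to 46.0 and 47.0 CPM with anti-M8nAb, with PECAM1 and PTPRC at 10 counts or fewer in each library. The sum of the fibroblast and stroma list was higher with anti-M8nAb, at 1454 and 1437 CPM against 1032 and 1065 CPM. Most of that gain was VIM, which hESCs also express, and the defining stromal genes DCN, LUM and FAP had at most 1 count in any library at 24 h.

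After 24 h the response was broad. With the threshold on adjusted p alone, 4270 genes were higher with anti-M8nAb (21.2% of those tested) and 4296 were lower (21.3%). These shares are the background for every count of list members given below. When the log2 fold change also had to reach 1 in size, 960 genes were higher (4.76%) and 975 lower (4.84%). The arms did not overlap in 957 of the 960 and in all 975. Both thresholds favour such genes, so this is no separate support for the calls. With limma on log2(FPKM + 1) the counts were 211 and 236, and on log2(FPKM + 0.1) they were 440 and 713, where 38.2% of the genes past both thresholds were higher, against 49.6% with edgeR. The median log2 fold change over all genes tested was 0.00, a centre that the scaling sets. The genes higher at an adjusted p under 0.05 gained 111580 CPM in all and the genes lower changed by -54124 CPM. Both sums depend on the scaling. The TMM factors were 1.037 and 1.043 for the IgG libraries and 0.979 and 0.978 for the anti-M8nAb libraries. Scaled totals therefore differ between the arms, and the excess of gain over loss is not a measured gain in RNA. Protein-coding genes made up 552 of the genes higher and 708 of those lower. Long non-coding RNAs made up 328 and 212, out of 4295 tested. Among protein-coding genes at a mean of at least 5 CPM, the fifth richest in GC had a median log2 fold change of -0.10 and the fifth poorest in GC one of 0.04. The part of base composition in single results was not tested, and an offset for it is among the settings tried.

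**Figure D1:**
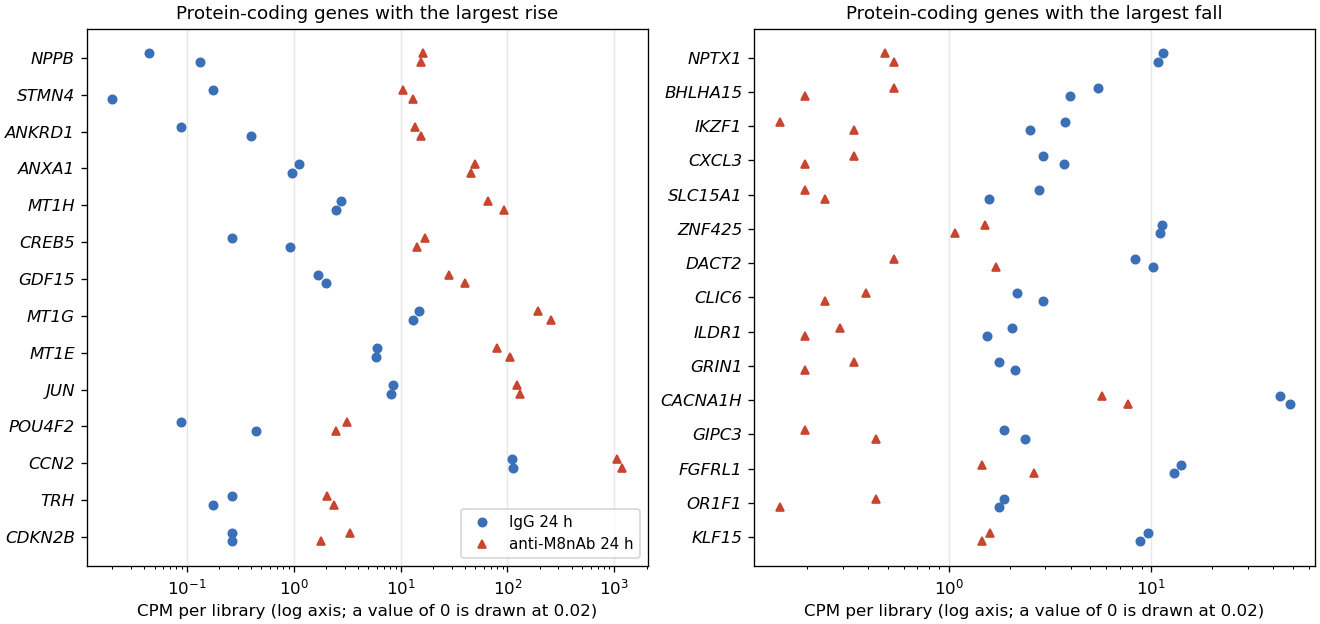
CPM on a log axis of the leading protein-coding genes that rose (left, all but 1 of 15) and fell (right, 15) at 24 h by fold, with 1 point per library (circles for IgG, triangles for anti-M8nAb). In each gene shown the arms do not overlap, which the rule for choosing them required. CCN2 is the most abundant gene shown, at 1063 and 1180 CPM with anti-M8nAb.

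The steepest rises were in genes that were nearly silent with IgG. NPPB, which encodes B-type natriuretic peptide and is induced by stretch in the heart, had 1 and 3 counts in the IgG libraries and stood at 16.2 and 15.5 CPM with anti-M8nAb. STMN4, a neuronal stathmin that destabilises microtubules, had 4 counts and 0 counts with IgG and stood at 10.5 and 13.01 CPM with anti-M8nAb. ANKRD1, a nuclear ankyrin-repeat cofactor, had 2 and 9 counts with IgG and stood at 13.7 and 15.6 CPM with anti-M8nAb. Fold changes against so few counts depend on the fit and are not given. ANXA1, a calcium-dependent phospholipid-binding protein, was at 1.11 and 0.969 CPM with IgG and at 50.0 and 45.8 CPM with anti-M8nAb (log2 fold change 5.52, SE 0.17, adjusted p = 5.75e-29). A second annexin, ANXA3, rose from 25.0 and 22.99 CPM to 71.2 and 76.6 CPM. Of the 17 annexin and S100 genes tested, 4 rose and 2 fell. CDKN2B, the inhibitor of CDK4 and CDK6 called p15, was at 0.266 and 0.264 CPM with IgG and at 3.36 and 1.80 CPM with anti-M8nAb.

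The steepest falls were in genes of low to moderate level with no single role. NPTX1, a secreted neuronal pentraxin, was at 11.4 and 10.8 CPM with IgG and at 0.487 and 0.536 CPM with anti-M8nAb (log2 fold change -4.43, SE 0.25, adjusted p = 3.33e-19). CACNA1H, a T-type calcium channel, fell from 43.1 and 48.1 CPM to 5.70 and 7.70 CPM. It was the steepest of the 12 genes that fell among 30 ion channel genes, of which 4 rose and whose median log2 fold change was -0.43. FGFRL1, a receptor-like protein that binds FGFs but has no kinase domain, fell from 13.9 and 12.99 CPM to 1.46 and 2.63 CPM. DACT2, a modulator of Wnt and TGF-beta signals, fell from 8.30 and 10.2 CPM to 0.535 and 1.71 CPM. UHRF1, which brings the maintenance DNA methyltransferase to replicated DNA, fell from 42.6 and 49.9 CPM to 11 and 9.79 CPM (log2 fold change -2.15, SE 0.11). Of 9 DNA methylation genes tested, 5 fell and none rose at this threshold. DNMT3A and DNMT1 were among them, with log2 fold changes of -0.51 and -0.27.

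In absolute terms the largest gains were in lipid synthesis. SCD, the desaturase that makes oleate, gained more CPM than any other gene that passed the test, from 2523 and 2426 CPM with IgG to 4505 and 4442 CPM with anti-M8nAb (log2 fold change 0.85, SE 0.04, adjusted p = 2.51e-23). FASN, the fatty acid synthase, rose from 2186 and 2468 CPM to 4363 and 3877 CPM. ACLY, which makes cytosolic acetyl-CoA from citrate, rose from 1126 and 1136 CPM to 2306 and 2188 CPM. HMGCS1, the synthase of the first committed mevalonate precursor, rose from 1324 and 1219 CPM to 3067 and 3074 CPM (log2 fold change 1.27, SE 0.04). Replicates of these genes lay close together and the arms were far apart. Of 25 genes of cholesterol synthesis, 21 rose and none fell at this threshold, and their median log2 fold change was 0.66 against 0.00 over all genes tested. INSIG1, which holds the SREBP precursors in the endoplasmic reticulum, rose from 211 and 211 CPM to 545 and 564 CPM. The 4 members that did not pass were MVK, PMVK, TM7SF2 and NSDHL, with log2 fold changes between -0.21 and 0.14. Of 19 genes of fatty acid synthesis, 12 rose and 3 fell, with a median of 0.38. The 3 that fell were ACACB, FADS3 and MID1IP1. ACACB, the mitochondrial acetyl-CoA carboxylase, fell from 20.6 and 19.8 CPM to 11.2 and 10.96 CPM, while its cytosolic counterpart ACACA rose from 373 and 364 CPM to 593 and 538 CPM. SREBF2, the transcription factor gene of sterol synthesis, rose by a log2 fold change of 0.24, and SREBF1, that of fatty acid synthesis, was at 63.6 and 73.9 CPM with IgG and 64.5 and 60.2 CPM with anti-M8nAb (adjusted p = 0.121). At 12 h the medians of the lists were 0.64 and 0.37. Parts of the exons of HMGCS1 (37.7%), IDI1 (14.97%), FDPS (18.6%) and ACAT2 (22.2%) overlap a gene on the other strand, and the counting is not stated to use strand, so reads of such pairs cannot be told apart.

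**Figure D2:**
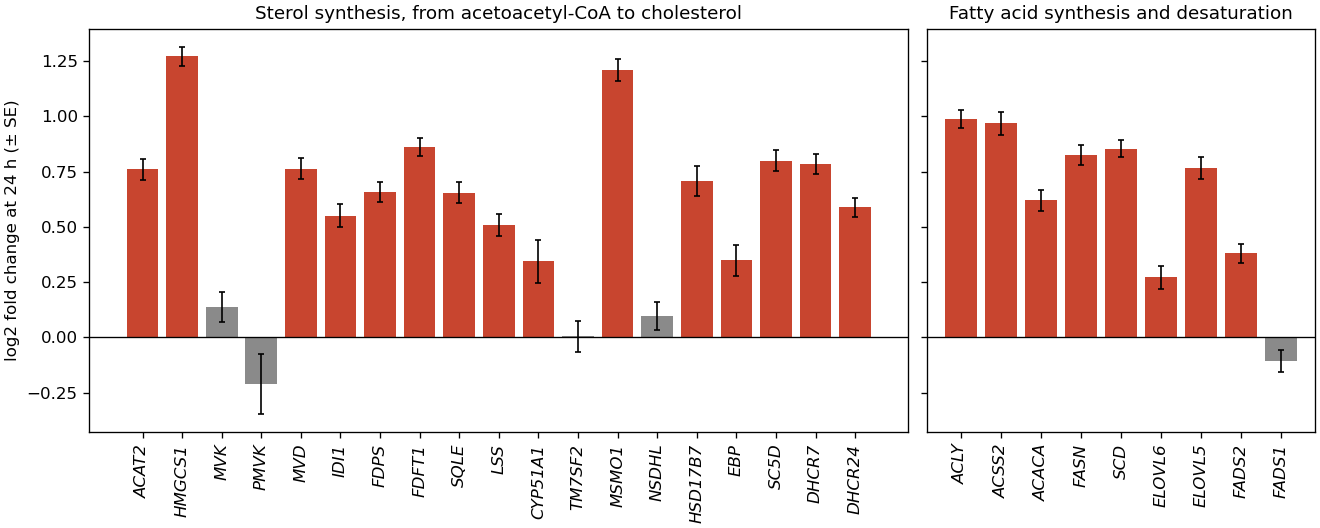
Log2 fold change at 24 h (bars, with SE from the fit) of most enzymes in the order of sterol synthesis (left) and of fatty acid synthesis and desaturation (right), with red bars for an adjusted p under 0.05 and grey bars for the rest. HMGCS1 at 1.27 and MSMO1 at 1.21 are the tallest bars, and only MVK, PMVK, TM7SF2, NSDHL and FADS1 are grey.

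Genes of the contractile cytoskeleton rose. TAGLN, an actin-binding marker of smooth muscle, went from 141 and 155 CPM with IgG to 578 and 587 CPM with anti-M8nAb (log2 fold change 1.97, SE 0.05, adjusted p = 2.40e-31). FLNC, a muscle filamin, went from 12.8 and 14.6 CPM to 76.6 and 68.5 CPM, and RHOB, a small GTPase, from 20.2 and 21.4 CPM to 151 and 144 CPM. CNN1, the smooth muscle calponin, went from 12.6 and 13.5 CPM to 56.2 and 49.8 CPM. In all of these the arms lay far apart. The abundant cytoplasmic actins rose less in fold and more in transcripts, ACTB from 2580 and 2658 CPM to 3703 and 3717 CPM and ACTG1 from 2128 and 2195 CPM to 3096 and 3131 CPM. Of the 32 actomyosin and SRF target genes, 24 rose and 2 fell, with a median of 0.46. The 2 that fell were TPM3 and FHL1, with log2 fold changes of -0.21 and -0.31. SRF itself, the factor that binds the CArG box in genes of this kind, was at 128 and 135 CPM with IgG and at 185 and 188 CPM with anti-M8nAb. Exons of TAGLN (34.1%), TPM1 (22.7%) and ACTA1 (16.6%) overlap genes on the other strand in part.

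The CArG box, which SRF recognises, was looked for in the 250 bases before the first start that RefSeq lists for each gene on GRCh38.p14, on both strands, as CC, then 6 bases that are A or T, then GG. A promoter was found by symbol for 12869 of the 20165 genes tested. The box was present in 137 of these 12869 promoters (1.06%). Over all genes past both thresholds it was in 13 of 510 promoters of those higher (2.55%) and 4 of 590 of those lower (0.678%). The actomyosin list was made to hold SRF targets, so its share cannot show a link between the box and the response. The box was in 9 of the 28 actomyosin promoters matched. Capitals mark the box in 4 of the 9, shown 5′ to 3′ because their genes rose, from levels that were low in ACTA1 and high in ACTG1. The windows are chr1:229434147-229434226 (minus strand) for ACTA1, chr17:81512849-81512928 (minus) for ACTG1, chrX:154374684-154374763 (minus) for FLNA and chr6:43171189-43171268 (plus) for SRF.
ACTA1: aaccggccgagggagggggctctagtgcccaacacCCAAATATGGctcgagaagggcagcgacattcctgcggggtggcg
ACTG1: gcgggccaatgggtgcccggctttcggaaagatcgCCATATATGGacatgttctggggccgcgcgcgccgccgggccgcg
FLNA: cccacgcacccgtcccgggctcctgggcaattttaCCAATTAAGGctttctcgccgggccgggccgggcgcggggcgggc
SRF: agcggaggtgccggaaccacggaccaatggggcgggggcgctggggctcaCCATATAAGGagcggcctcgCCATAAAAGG
ACTA1, skeletal muscle actin, went from 4.26 and 4.23 CPM to 18.4 and 19.6 CPM (log2 fold change 2.16), and FLNA, the non-muscle filamin, from 1423 and 1571 CPM to 2039 and 1776 CPM (0.35). SRF holds 2 boxes in the window shown. FHL2, which also has a box, was at 27.7 and 28.9 CPM with IgG and 28.5 and 32.2 CPM with anti-M8nAb (adjusted p = 0.44), so the arms overlapped there. A match describes the sequence and does not show that SRF binds it.

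Focal adhesion genes moved in both directions. VCL, which encodes vinculin, rose from 674 and 644 CPM to 1238 and 1198 CPM (log2 fold change 0.89, SE 0.04), and PXN and ZYX, the adaptors paxillin and zyxin, rose by 0.69 and 0.57 on the log2 scale. FBLIM1, which binds filamin and kindlin, fell from 68.7 and 74.4 CPM to 43.8 and 45.6 CPM. Of 20 focal adhesion genes, 12 rose and 5 fell, with a median of 0.22. Part of the exons of VCL (11.1%) and PXN (27.2%) overlap a gene on the other strand.

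Targets of YAP and TAZ, the coactivators of TEAD factors, held some of the largest rises in transcripts. CCN2, a secreted matricellular protein, went from 111 and 114 CPM with IgG to 1063 and 1180 CPM with anti-M8nAb (log2 fold change 3.32, SE 0.06, adjusted p = 5.98e-38). CCN1, its relative, went from 79.3 and 79.4 CPM to 407 and 458 CPM, and FSTL1, a secreted follistatin-like protein, from 645 and 602 CPM to 1328 and 1378 CPM. NUAK2, a kinase of actomyosin regulation, went from 12.5 and 12.0 CPM to 39.6 and 37.6 CPM. The list of 28 genes tested also holds YAP1, TEAD factors and regulators of the pathway. Of the 28, 15 rose and 2 fell, the 2 being AMOTL1 and TEAD4 with log2 fold changes of -0.24 and -0.21. YAP1 itself, counted among the 15, was at 169 and 151 CPM with IgG and 181 and 172 CPM with anti-M8nAb (log2 fold change 0.14, adjusted p = 0.0443). DESeq2 did not make this call. Exons of CCN2 (11.9%) and YAP1 (10.1%) overlap a gene on the other strand in part. The TEAD motif GGAATG occurred, on either strand, in 9.503% of all promoters matched and in 5 of 20 promoters of the list. The windows of the 2 genes of these 5 with the largest response are shown with the motif in capitals, CCN2 at chr6:131951452-131951551 (minus strand) and ANKRD1 at chr10:90921200-90921317 (minus strand) of GRCh38.p14, from RefSeq.
CCN2: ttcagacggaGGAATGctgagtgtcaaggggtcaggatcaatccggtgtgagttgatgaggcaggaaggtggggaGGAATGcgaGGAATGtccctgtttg
ANKRD1: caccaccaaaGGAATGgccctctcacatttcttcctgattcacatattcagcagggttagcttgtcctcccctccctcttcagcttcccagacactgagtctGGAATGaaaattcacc
CCN2 holds 3 matches and ANKRD1 holds 2. Most promoters of the list, 15 of 20, hold none in this window, and a match is not a binding site. Over all genes past both thresholds the motif was in 59 of 510 promoters of those higher (11.6%) and 48 of 590 of those lower (8.14%). The list holds targets of TEAD coactivators beside genes of the pathway itself, so its share cannot show a link between the motif and the response.

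Among genes of the extracellular matrix, 22 of 46 rose and 14 fell, with a median of 0.20. PLAU, the urokinase, rose from 24.7 and 24.2 CPM to 81.8 and 89.0 CPM (log2 fold change 1.80, SE 0.09). THBS1, the matricellular protein thrombospondin, went from 67.6 and 67.7 CPM to 321 and 310 CPM, and SPARC from 397 and 386 CPM to 687 and 688 CPM. Basement membrane and collagen genes were among those that fell. LAMA5, a laminin chain of epithelial basement membranes, went from 168 and 197 CPM to 118 and 114 CPM, AGRN, the proteoglycan agrin, from 204 and 232 CPM to 145 and 129 CPM, and COL1A2 from 63.5 and 69.6 CPM to 32.3 and 30.1 CPM. Of the exons of PLAU, 31.0% overlap a gene on the other strand. Genes of epithelial junctions leaned the other way from the matrix genes, with 7 of 32 that rose, 16 that fell and a median of -0.21. DSP, which encodes desmoplakin, fell from 132 and 128 CPM to 81.5 and 79.8 CPM, and ESRP1, an epithelial splicing regulator, from 165 and 150 CPM to 116 and 105 CPM. CDH1, E-cadherin, was at 232 and 224 CPM with IgG and 240 and 229 CPM with anti-M8nAb and did not pass the test (adjusted p = 0.556). CDH2, N-cadherin, rose from 69.3 and 70.7 CPM to 95.0 and 98.7 CPM, and VIM, the mesenchymal intermediate filament, from 173 and 169 CPM to 477 and 461 CPM. Of the exons of VIM, 24.6% overlap a gene on the other strand.

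**Figure D3:**
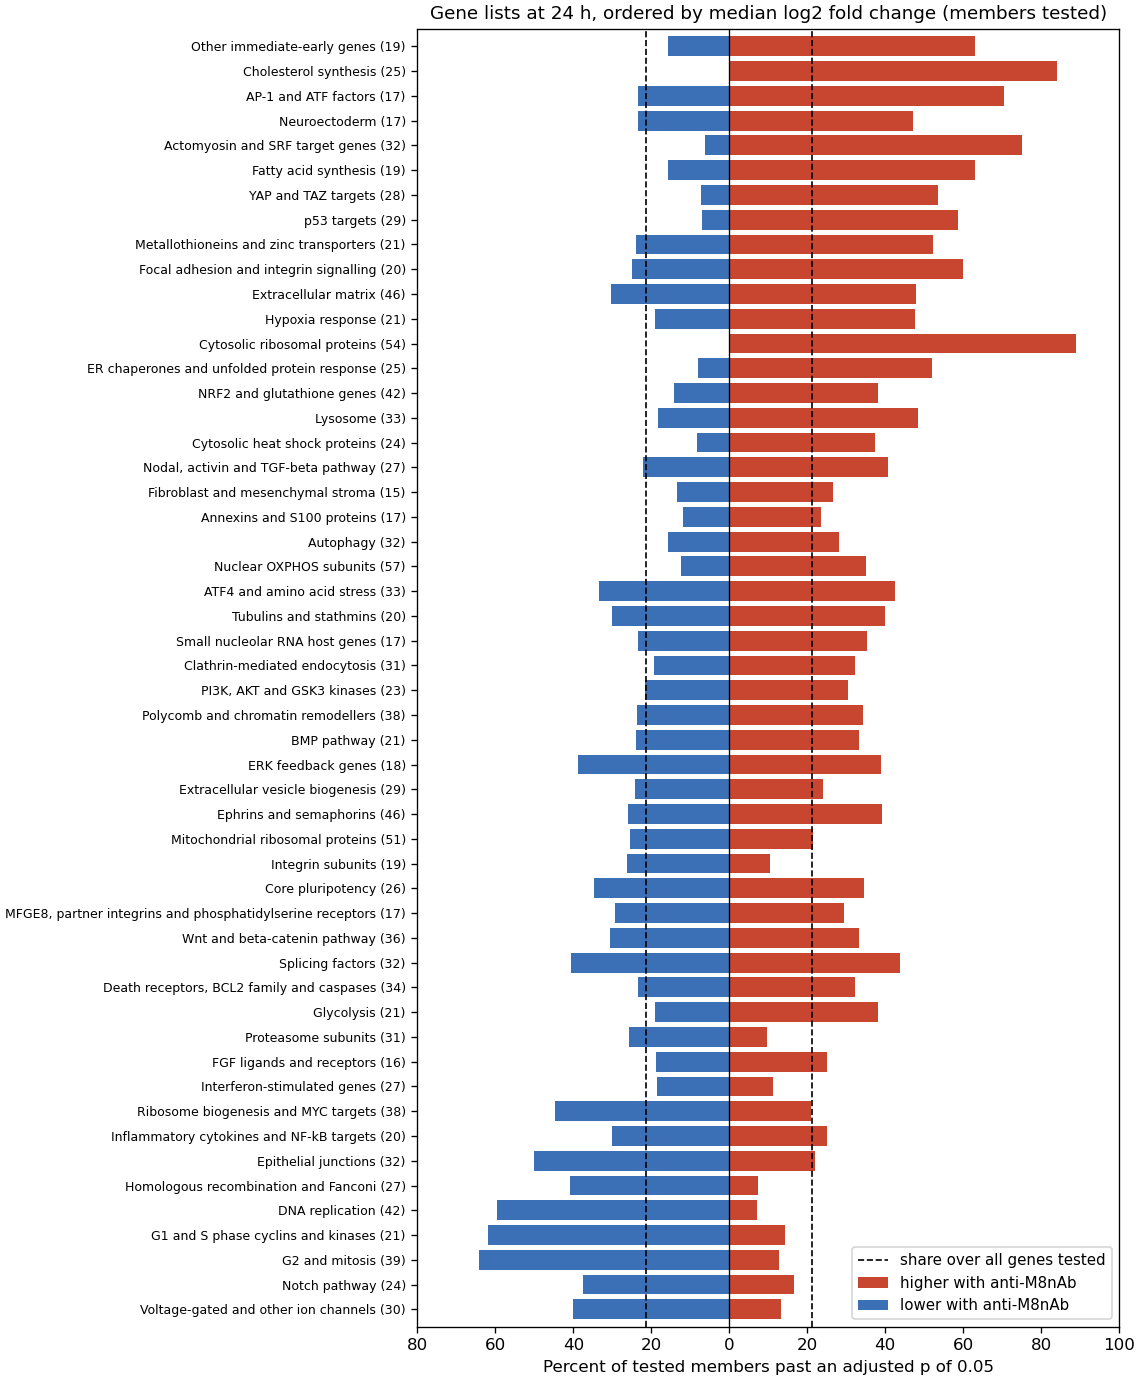
Percent of the tested members of each gene list that rose (red, to the right) or fell (blue, to the left) at an adjusted p under 0.05, for the lists with at least 15 tested members (number in brackets), ordered from the highest median log2 fold change at the top. Dashed lines mark the shares over all genes tested, 21.2% higher and 21.3% lower. The bars of cytosolic ribosomal proteins (48 of 54) and cholesterol synthesis (21 of 25) reach farthest to the right, and that of G2 and mitosis (25 of 39) farthest to the left.

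Immediate-early and AP-1 genes were high at 24 h, although they are known for brief bursts after a stimulus. JUN, an AP-1 subunit, was at 8.57 and 8.11 CPM with IgG and at 122 and 130 CPM with anti-M8nAb (log2 fold change 3.92, SE 0.09, adjusted p = 1.30e-33). ATF3, a stress-induced partner of JUN, went from 22.6 and 24.6 CPM to 101.2 and 117 CPM, and JUND from 56.0 and 67.5 CPM to 129 and 114 CPM. EGR1, a zinc finger factor of the growth response, went from 7.59 and 6.92 CPM to 48.2 and 58.3 CPM. The FOS family took a smaller share, since FOS went from 5.28 and 5.51 CPM to 8.42 and 7.21 CPM and FOSL1 was at 8.30 and 5.99 CPM with IgG and 7.20 and 6.58 CPM with anti-M8nAb (adjusted p = 0.856). JUNB fell from 3.06 and 3.08 CPM to 1.75 and 0.877 CPM (14.2% of its exons overlap a gene on the other strand). Of 17 AP-1 and ATF genes, 12 rose and 4 fell, and of 19 other immediate-early genes 12 rose and 3 fell. The mRNA-destabilising proteins ZFP36L1 and ZFP36L2 went apart, ZFP36L1 from 160 and 164 CPM to 322 and 338 CPM and ZFP36L2 from 118 and 125 CPM to 55.2 and 54.2 CPM. Of 18 ERK feedback genes, a list of inhibitors and targets of that kinase, 7 rose and 7 fell. DUSP6, an ERK phosphatase, rose from 451 and 423 CPM to 705 and 741 CPM, and SPRED3, an inhibitor of RAS signalling, fell from 4.97 and 5.77 CPM to 1.36 and 1.41 CPM. Exons of DUSP6 (28.6%) and ZFP36L2 (22.4%) overlap a gene on the other strand in part.

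Metallothioneins, small cysteine-rich proteins that hold zinc and copper, rose together. MT1G went from 14.8 and 12.99 CPM with IgG to 192 and 254 CPM with anti-M8nAb (log2 fold change 4.01, SE 0.10, adjusted p = 2.14e-33). MT1X went from 23.6 and 24.1 CPM to 198 and 252 CPM, MT2A from 12.2 and 12.2 CPM to 84.6 and 109 CPM, and MT1E from 6.04 and 5.95 CPM to 79.5 and 105 CPM. In each of them the second anti-M8nAb library was higher than the first, and both were far above the IgG libraries. These genes are near-identical copies on chromosome 16, so counts may be split between them and the value of a single copy is uncertain. SLC30A1, the zinc exporter of the plasma membrane, rose from 81.0 and 79.9 CPM to 156 and 193 CPM. MTF1, the zinc-sensing factor that drives metallothioneins, fell from 20.03 and 18.2 CPM to 13.3 and 13.3 CPM. Of 21 metallothionein and zinc transporter genes tested, 11 rose and 5 fell, and 4 of the 5 that fell were transporters. The core of the metal response element to which MTF1 binds, TGCNCNC on either strand, is short and occurred in 56.1% of all promoters matched. Over all genes past both thresholds it was in 52.7% of promoters of those higher and 58.6% of those lower. Matches at 4 or more places were found in 2.07% of promoters, and the window of MT1X, at chr16:56682310-56682433 (plus strand, GRCh38.p14, RefSeq), is shown because it holds 4, in capitals.
MT1X: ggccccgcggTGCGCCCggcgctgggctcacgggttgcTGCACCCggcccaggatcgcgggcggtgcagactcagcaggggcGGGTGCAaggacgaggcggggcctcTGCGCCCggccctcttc

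Genes of several stress pathways changed unevenly. Over all genes tested 21.2% were higher and 21.3% lower. The median log2 fold change was 0.29 for p53 targets, 0.09 for ATF4 genes, 0.15 for NRF2 and glutathione genes and -0.01 for cell death genes. The medians of the ATF4 and cell death lists changed sign under some of the settings tried. Among p53 targets 17 of 29 rose and 2 fell. CDKN1A, the CDK inhibitor p21, went from 20.8 and 18.5 CPM to 102 and 124 CPM (log2 fold change 2.52, SE 0.10, adjusted p = 1.90e-25), GADD45A from 19.4 and 22.2 CPM to 65.2 and 68.6 CPM, and GDF15, a secreted stress cytokine, from 1.69 and 2.03 CPM to 28.2 and 40.3 CPM. DDB2 and ZMAT3, which are also p53 targets, fell by 0.44 and 0.34 on the log2 scale. Among genes of amino acid stress driven by ATF4, 14 of 33 rose and 11 fell. STC2, a secreted stanniocalcin, rose from 33.2 and 30.7 CPM to 68.4 and 67.5 CPM, and SLC7A11, the cystine importer, from 29.6 and 25.6 CPM to 64.8 and 67.3 CPM. CBS, an enzyme that turns homocysteine into cystathionine, fell from 69.1 and 73.3 CPM to 30.7 and 34.0 CPM. Among genes of NRF2 and glutathione, 16 of 42 rose and 6 fell, HMOX1 going from 41.3 and 43.1 CPM to 94.9 and 92.5 CPM. Of 34 genes of cell death, 11 rose and 8 fell. The survival gene MCL1 rose from 394 and 382 CPM to 532 and 560 CPM, and CASP6 fell from 21.2 and 24.5 CPM to 10.5 and 11.2 CPM.

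Chaperones of the endoplasmic reticulum leaned higher, with 13 of 25 genes that rose and 2 that fell. HSPA5, the master chaperone BiP, went from 685 and 655 CPM to 1058 and 1204 CPM (log2 fold change 0.75, SE 0.05, adjusted p = 2.20e-17). EIF2AK3, the stress-sensing kinase PERK, went from 47.3 and 44.3 CPM to 92.0 and 93.4 CPM, and HERPUD1, a protein of ER-associated degradation, from 24.2 and 24.7 CPM to 41.2 and 47.6 CPM. XBP1 and CALR fell, by 0.34 and 0.17 on the log2 scale. The endoplasmic reticulum stress element, searched for on either strand as CCAAT, then 9 bases of any kind, then CCACG, was in 0.109% of all promoters matched and in 7 of 24 of this list. Over all genes past both thresholds the element was in 0 of 510 promoters of those higher and 1 of 590 of those lower. It contains the CCAAT box, which on its own was in 34.3% of promoters. The list holds genes of the kind the element is named for, so its share cannot show a link between the element and the response. The window of HSPA5, the member with the smallest p, lies at chr9:125241361-125241440 (minus strand, GRCh38.p14, RefSeq) and carries the element in capitals.
HSPA5: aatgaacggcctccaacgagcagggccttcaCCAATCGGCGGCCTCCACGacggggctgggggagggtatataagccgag
Of the 7 genes with the element HSPA5 rose, HSP90B1 rose by a log2 fold change of 0.12 in a call that DESeq2 did not make, XBP1 and CALR fell, and CANX, CRELD2 and ERO1B did not pass the test.

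Genes of the cell cycle fell, by modest amounts. PLK1, the polo kinase of mitosis, went from 136 and 142 CPM with IgG to 79.8 and 76.0 CPM with anti-M8nAb (log2 fold change -0.83, SE 0.06, adjusted p = 4.15e-15). CENPF, a kinetochore protein, went from 268 and 238 CPM to 148 and 133 CPM, MKI67, the proliferation marker Ki-67, from 233 and 236 CPM to 147 and 116 CPM, and CCNB1, cyclin B1, from 247 and 240 CPM to 170 and 160 CPM. None of the 4 had overlapping arms. Of 39 genes of G2 and mitosis, 25 fell and 5 rose, with a median log2 fold change of -0.34, and none passed a log2 fold change of 1 in size. Of 42 DNA replication genes, 25 fell and 3 rose, with a median of -0.25. RRM2, a subunit of ribonucleotide reductase, went from 170 and 164 CPM to 111 and 113 CPM. UNG, a uracil glycosylase, was among the 3 that rose. Of 21 cyclins and kinases of G1 and S phase, 13 fell and 3 rose. CCND1, cyclin D1, fell from 101.4 and 111 CPM to 67.4 and 64.8 CPM, while CCND2, cyclin D2, rose from 178 and 154 CPM to 249 and 253 CPM and CDK6 from 37.2 and 34.9 CPM to 71.4 and 70.7 CPM. Of 27 genes of homologous recombination, 11 fell and 2 rose, and XRCC2, a recombination factor, fell from 36.8 and 35.5 CPM to 19.7 and 14.96 CPM. Exons of PLK1 (12.8%) and CCND1 (10.4%) overlap other genes on the opposite strand in part. The cell cycle homology region TTTGAA, through which the DREAM and MMB complexes act, was found on either strand in 8.83% of all promoters matched. Over all genes past both thresholds it was in 75 of 510 promoters of those higher (14.7%) and 43 of 590 of those lower (7.29%). In the G2 and mitosis list it was in 18 of 33. Genes of mitosis are those the motif is known from, so this share cannot show a link between the motif and the response. The windows of PLK1, chr16:23678809-23678888 (plus strand), and MKI67, chr10:128126424-128126503 (minus strand), both of GRCh38.p14 from RefSeq, stand for the 18, with the motif in capitals.
PLK1: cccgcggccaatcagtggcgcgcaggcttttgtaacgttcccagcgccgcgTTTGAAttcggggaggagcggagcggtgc
MKI67: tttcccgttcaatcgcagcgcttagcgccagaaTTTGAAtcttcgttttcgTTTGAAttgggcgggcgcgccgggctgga
ANLN, BUB1B and CKS1B, which rose slightly by 0.21, 0.18 and 0.31 on the log2 scale, hold the motif too.

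Of 54 cytosolic ribosomal protein genes, 48 rose and none fell at this threshold, all within a narrow range of log2 fold change from 0.04 to 0.29. Their median was 0.19, and changes this small can depend on the scaling. The median over all genes tested was -0.07 on log2(FPKM + 1) and -0.08 on log2(FPKM + 0.1). The sum of the ribosomal protein genes went from 34589 and 35392 CPM with IgG to 39691 and 41134 CPM with anti-M8nAb. EEF1A1, the elongation factor that delivers aminoacyl-tRNA, rose from 4706 and 4654 CPM to 6189 and 6251 CPM. Of 38 genes of ribosome biogenesis, 17 fell and 8 rose, with NOP56, a core protein of snoRNPs, going from 386 and 384 CPM to 285 and 261 CPM and RRS1 from 76.6 and 78.8 CPM to 48.5 and 49.3 CPM. MYC, which drives such genes, rose nonetheless, from 92.7 and 98.01 CPM to 173 and 154 CPM.

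Mitochondrially encoded transcripts changed unequally, although they are cut from common precursors. MT-ND1, a subunit of complex I, fell from 1100 and 1140 CPM to 727 and 714 CPM (log2 fold change -0.64, SE 0.04, adjusted p = 5.10e-16), and MT-ND2 fell from 908 and 943 CPM to 601 and 633 CPM. MT-CO1, a subunit of complex IV, rose from 2936 and 2991 CPM to 3308 and 3298 CPM, and MT-ND4 was at 1919 and 2056 CPM with IgG and 1979 and 2074 CPM with anti-M8nAb (adjusted p = 0.612). Of the 13 genes, 7 fell and 1 rose. Among 57 nuclear genes of oxidative phosphorylation, 20 rose and 7 fell, with a median of 0.09.

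RNA-binding proteins also parted. HNRNPM fell from 715 and 746 CPM to 511 and 480 CPM, and SRSF6, an SR protein of exon choice, from 165 and 157 CPM to 110 and 102 CPM. HNRNPH1 rose from 652 and 648 CPM to 932 and 923 CPM. The kinases that phosphorylate SR proteins rose, CLK1 from 19.7 and 22.1 CPM to 40.8 and 44.9 CPM and CLK4 from 11.1 and 9.34 CPM to 23.9 and 26.4 CPM. In all, 14 of 32 splicing genes rose and 13 fell.

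Signals that pattern the embryo changed at the level of ligands, inhibitors and targets. ID1, a target of BMP receptors that blocks bHLH factors, fell from 55.5 and 65.4 CPM to 14.3 and 12.0 CPM (log2 fold change -2.20, SE 0.11, adjusted p = 2.72e-21), and ID3 from 168 and 175 CPM to 75.1 and 76.3 CPM. SMAD7, an inhibitor that BMP and TGF-beta induce, fell from 20.7 and 25.4 CPM to 12.3 and 9.79 CPM. Not all genes of these kinds fell: another ID gene and another inhibitory SMAD gene of the list rose, while a further ID gene fell. The receptor gene BMPR2 rose from 28.1 and 25.9 CPM to 48.5 and 48.8 CPM. On the Nodal side, the ligand genes NODAL and GDF3 rose, NODAL from 10.04 and 9.07 CPM to 24.0 and 22.7 CPM and GDF3 from 18.4 and 18.8 CPM to 45.9 and 44.7 CPM, while LEFTY1, an inhibitor of Nodal, fell from 12.8 and 14.3 CPM to 4.48 and 4.53 CPM. In the Wnt pathway AXIN2, a feedback target of beta-catenin, fell from 23.1 and 22.99 CPM to 9.54 and 9.40 CPM, and DACT1 rose from 42.5 and 46.6 CPM to 131 and 135 CPM. In the Notch pathway NRARP, a feedback inhibitor, fell from 40.1 and 47.4 CPM to 13.2 and 15.2 CPM and the receptor NOTCH3 from 127 and 141 CPM to 73.6 and 68.0 CPM, and RBPJ, the DNA-binding partner of Notch, rose from 211 and 180 CPM to 374 and 389 CPM. Of the genes tested, 7 rose and 5 fell in the BMP pathway (21 tested), 11 and 6 in the Nodal, activin and TGF-beta pathway (27), 12 and 11 in the Wnt pathway (36), and 4 and 9 in the Notch pathway (24). Of the exons of NODAL, 33.5% overlap a gene on the other strand.

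Among 17 genes of MFGE8, its integrins and phosphatidylserine receptors, 5 rose and 5 fell. MFGE8 was at 823 and 860 CPM with IgG and at 929 and 935 CPM with anti-M8nAb (log2 fold change 0.15, SE 0.04, adjusted p = 0.0052). The call of MFGE8 was lost on the scale log2(FPKM + 1), at 0.06, and without the first IgG library, at 0.11. An antibody binds the protein and not the transcript, so this level is no check of the blockade. ITGAV, the αv subunit, rose from 66.9 and 60.4 CPM to 88.2 and 89.1 CPM (log2 fold change 0.48), and ITGB5, the β5 subunit, was at 287 and 299 CPM with IgG and 297 and 295 CPM with anti-M8nAb (adjusted p = 0.842). ITGB3 was below the filter, with 2 to 6 counts. On the FPKM scale, which allows for gene length, ITGB5 had a mean of 46.7 with IgG, ITGB1 21.6 and ITGAV 3.42. The phosphatidylserine-bridging ligand GAS6 fell from 53.3 and 55.9 CPM to 31.1 and 29.1 CPM, its receptor TYRO3 fell from 105 and 117 CPM to 71.6 and 74.0 CPM, and another receptor, AXL, rose from 37.5 and 37.9 CPM to 60.9 and 54.3 CPM. CD36, a scavenger receptor, rose from 1 and 4 counts with IgG to 1.02 and 0.828 CPM with anti-M8nAb, and SCARF1, another, fell from 0.933 and 1.89 CPM to 0.535 and 0.390 CPM in a call that DESeq2 did not make. AKT1 fell from 119 and 122 CPM to 84.7 and 89.98 CPM and GSK3B rose from 75.4 and 74.0 CPM to 108 and 106 CPM. These are levels of mRNA and say nothing of phosphorylation. Among 31 genes of clathrin-mediated endocytosis 10 rose and 6 fell. DNM1, a dynamin best known from neurons, fell from 59.3 and 60.0 CPM to 37.0 and 39.02 CPM, DNM2, the ubiquitous dynamin, was at 198 and 210 CPM with IgG and 230 and 220 CPM with anti-M8nAb (log2 fold change 0.14, adjusted p = 0.0281, not passed with the 24 h libraries alone), and PICALM, a clathrin assembly protein, rose from 102 and 92.6 CPM to 152 and 156 CPM. Of 29 genes of extracellular vesicle biogenesis 7 rose and 7 fell, among them the vesicle marker CD9, which fell from 201 and 195 CPM to 147 and 157 CPM.

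Within the core pluripotency list 9 of 26 genes rose and 9 fell. PRDM14, a repressor that guards pluripotency, fell from 52.1 and 55.7 CPM to 30.1 and 25.6 CPM (log2 fold change -0.95, SE 0.09), and TERF1, a telomere protein that is abundant in these cells, from 521 and 491 CPM to 310 and 324 CPM. DPPA4 rose from 711 and 695 CPM to 858 and 902 CPM and ZIC2 from 231 and 243 CPM to 330 and 325 CPM. TERT, the telomerase reverse transcriptase, fell from 20.5 and 22.2 CPM to 7.25 and 6.67 CPM. Lineage genes moved at low and at high levels. NES, the intermediate filament nestin, rose from 168 and 176 CPM to 255 and 231 CPM, and SOX11, a neural SOX factor, fell from 116 and 114 CPM to 80.3 and 76.7 CPM. KRT8 was at 940 and 1008 CPM with IgG and 1066 and 1058 CPM with anti-M8nAb, and its processed pseudogenes may share its reads. TWIST1, a mesenchymal bHLH factor, went from 1.02 and 1.41 CPM to 9.39 and 10.6 CPM, and CER1, a secreted Nodal and BMP antagonist, from 1.02 and 0.969 CPM to 8.28 and 10.6 CPM. FOXA2, an endoderm factor, fell from 3.20 and 2.42 CPM to 0.633 and 0.731 CPM. Counts for lineage lists cover the members that passed the filter only, which favours genes that are on in one arm. Of 12 such genes of primitive streak and mesoderm 4 rose and 2 fell, of 7 of definitive endoderm 3 and 2, of 17 of neuroectoderm 8 and 4, and of 10 of trophoblast and amnion 5 and 1. Of 15 of fibroblast and stroma 4 rose and 2 fell, and of 7 of endothelium and blood 3 and 1.

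Zinc finger genes named ZNF fell as a group, one that was singled out after its values were seen. Most such genes encode C2H2 zinc finger proteins, many of them KRAB repressors of transposable elements, and many lie in clusters on chromosome 19. ZNF551 was at 52.0 and 50.1 CPM with IgG and at 13.6 and 13.01 CPM with anti-M8nAb (log2 fold change -1.94, SE 0.10, adjusted p = 2.89e-20). ZNF549 went from 23.6 and 23.6 CPM to 6.72 and 6.24 CPM, ZNF134 from 91.6 and 86.7 CPM to 42.6 and 38.7 CPM, ZNF398, which lies on chromosome 7, from 115 and 117 CPM to 57.1 and 55.5 CPM, and ZNF425 from 11.3 and 11.1 CPM to 1.51 and 1.07 CPM. The arms lay well apart in all 5. Of 451 protein-coding ZNF genes tested, 219 fell (48.6%) and 52 rose (11.53%), with a median log2 fold change of -0.35, where the 14112 other protein-coding genes had a median of -0.01 and 24.9% that fell. On chromosome 19 the median was -0.41 over 216 ZNF genes, and elsewhere it was -0.24 over 235. The other 849 protein-coding genes on chromosome 19 had a median of -0.08. At 12 h the medians of these ZNF genes were 0.05 on chromosome 19 and 0.07 elsewhere. Paralogs in these clusters share sequence, and the counting may split reads among them. Under the alternative fits at 24 h, which tested 397 to 451 of these genes, their median lay between -0.41 and -0.25.

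**Figure D4:**
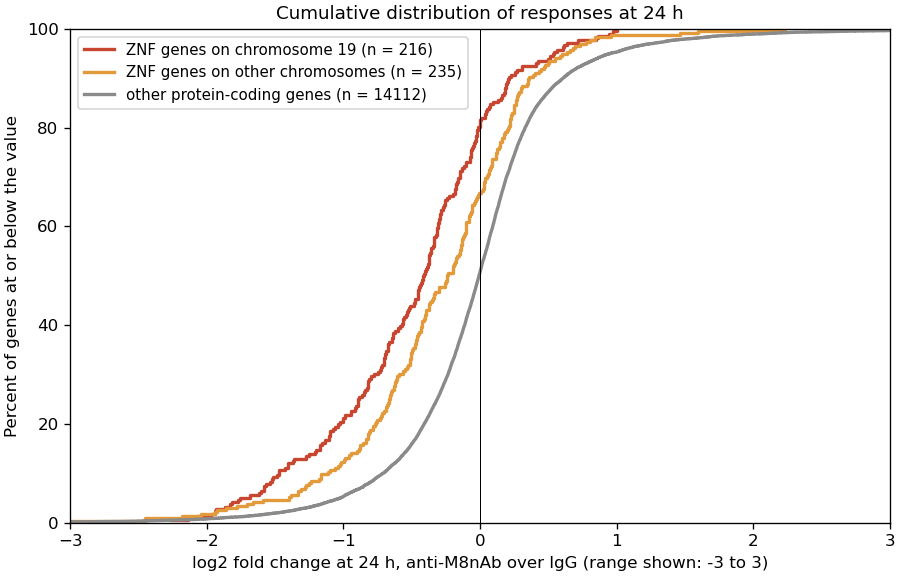
Cumulative percent of genes at or below each log2 fold change at 24 h, for ZNF genes on chromosome 19 (red, 216), ZNF genes elsewhere (orange, 235) and the other protein-coding genes (grey, 14112), with the axis cut at -3 and 3. The red curve lies to the left of the orange one over most of its length and both lie left of the grey one, with medians of -0.41, -0.24 and -0.01.

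The response at 24 h was tested against that at 12 h in a contrast of its own. It was more positive at 24 h in 1167 genes (5.79% of those tested) and more negative in 1319 (6.54%). The counts depended on the IgG libraries at 12 h: they were 625 and 827 without the first of them and 651 and 915 without the second, and they were 561 and 667 with no filter on low counts. FLNC had a log2 fold change of 0.20 at 12 h (adjusted p = 0.166) and of 2.40 at 24 h (adjusted p of the difference = 2.31e-15). MT1G went from 1.19 to 4.01, TAGLN from 0.86 to 1.97, VIM from 0.43 to 1.45 and HSPA5 from -0.17 to 0.75. On the other side PRICKLE1, a planar cell polarity protein, had 0.34 at 12 h and -1.51 at 24 h, and its level at 24 h was 126 and 128 CPM with IgG and 47.9 and 41.0 CPM with anti-M8nAb. EIF5, an initiation factor that promotes start site selection, had 0.09 and -1.30, OTX2, a homeobox factor of primed pluripotency and forebrain, had 0.71 and -0.53, and ID1 had -0.47 and -2.20. Of the genes past both thresholds at 24 h, 104 of those higher and 147 of those lower had not passed the adjusted p at 12 h and also differed between the times. In 86 genes the response passed the test upward at 12 h and downward at 24 h with a difference that passed as well, and in 77 it did the reverse. STC2 was one of these 77, with -0.64 at 12 h and 1.09 at 24 h. Among the 26 core pluripotency genes, 12 had a more negative response at 24 h and 1, GDF3, a more positive one. Among 32 actomyosin genes 15 were more positive and none more negative at this threshold, and among 42 DNA replication genes 16 were more negative. Among 39 genes of G2 and mitosis, by contrast, 9 were more positive at 24 h and 2 more negative, and their median was -0.41 at 12 h and -0.34 at 24 h. Of 216 ZNF genes on chromosome 19, 81 were more negative and 1 more positive, and of 235 elsewhere 72 were more negative and 7 more positive. Of the exons of PRICKLE1, 23.7% overlap a gene on the other strand.

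**Figure D5:**
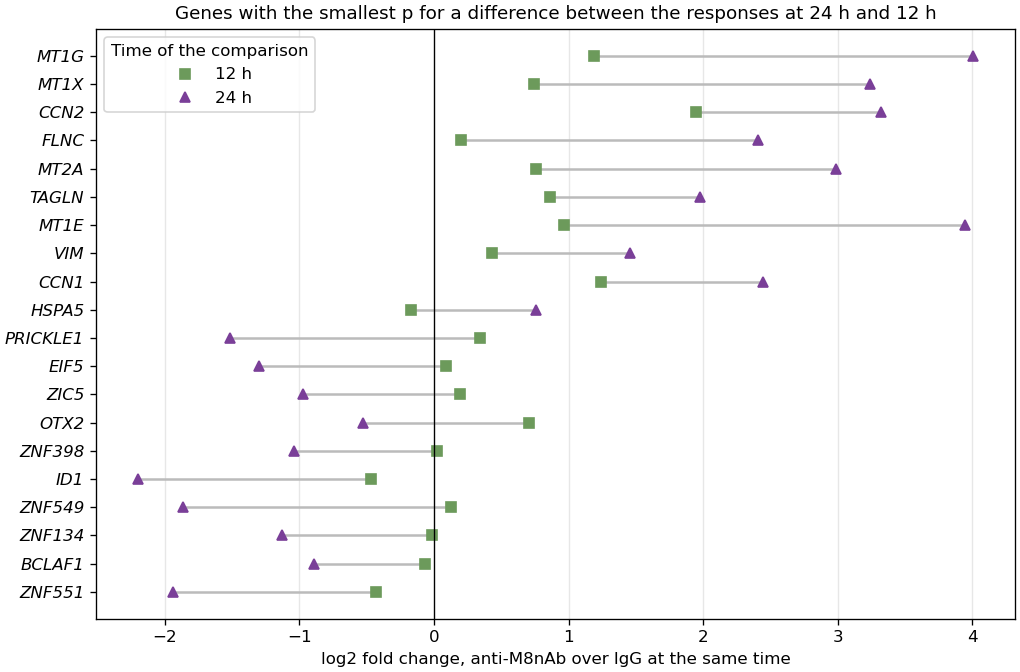
Log2 fold change of anti-M8nAb over IgG at 12 h (squares) and at 24 h (triangles), joined by a line, for protein-coding genes, 10 a side, ranked by the p of the difference between the times. MT1E moves from 0.97 to 3.94 and PRICKLE1 from 0.34 to -1.51, and HSPA5 and OTX2 are among the genes whose line crosses 0.

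Long non-coding RNAs moved by folds as large as those of mRNAs, mostly at low levels. PCAT14 rose from 0.888 and 0.573 CPM to 9.74 and 8.91 CPM (log2 fold change 3.66, SE 0.28), and LINC02076 from 0.755 and 0.396 CPM to 4.67 and 4.87 CPM. An unnamed transcript, ENSG00000284294, was the exception in level and rose from 29.2 and 25.0 CPM to 258 and 264 CPM. LINC02600 fell from 2.04 and 2.95 CPM to 0.146 and 0.487 CPM. The roles of these transcripts are not given here. Of 17 host genes of small nucleolar RNAs, 6 rose and 4 fell, with SNHG4 lower by a log2 fold change of -0.99.

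The remaining lists are given by their counts, beside 21.2% higher and 21.3% lower over all genes tested. Many lie near these shares, and such counts are not read as a response of the list. Of 33 lysosome genes 16 rose and 6 fell, NEU1, a sialidase, going from 91.5 and 91.3 CPM to 166 and 178 CPM and GLA, an alpha-galactosidase, from 38.8 and 37.0 CPM to 15.04 and 17.0 CPM. Of 21 glycolysis genes 8 rose and 4 fell. SLC2A3, a glucose transporter, rose from 1179 and 1110 CPM to 1997 and 2005 CPM, and PFKP, a phosphofructokinase, fell from 124 and 142 CPM to 70.2 and 66.8 CPM. Of 21 hypoxia genes 10 rose and 4 fell, of 32 autophagy genes 9 and 5, of 31 proteasome genes 3 and 8, of 51 mitochondrial ribosomal protein genes 11 and 13, and of 27 interferon-stimulated genes 3 and 5. Of 46 ephrin and semaphorin genes 18 rose and 12 fell. Of 24 cytosolic heat shock genes 9 rose and 2 fell, of 19 integrin subunits 2 and 5, and of 16 FGF ligands and receptors 4 and 3. The PI3K, AKT and GSK3 list holds kinases and their regulators, and of its 23 genes 7 rose and 5 fell. Of 11 Hedgehog genes 0 rose and 2 fell, of 20 inflammatory genes 5 and 6, and of 38 chromatin regulators 13 and 9. Of 20 tubulins and stathmins 8 rose and 6 fell, and of 13 genes of telomerase and shelterin 4 and 4. Of 7 caveolar genes 4 rose and 1 fell, of 7 further dual-specificity phosphatases 3 and 1, of 9 genes of naive pluripotency 5 and 1, and of 8 of neural crest 5 and 1.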

How the data were processed

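The deposited table held read counts per gene that the authors made on GRCh38.p14. The study's methods name Trimmomatic, STAR in its 2-pass mode, Picard and HTSeq. Picard served to remove duplicate reads, and what this did to the counts of abundant genes was not tested. A second deposited table held FPKM that the authors computed with RNAnorm. The sources used here also name FastQC 0.11.9. Versions of the other tools are not given in the sources used here, and neither is the strand setting of the counting. Each table had 4 further columns of values that were not used. Symbols, biotypes and exon overlaps came from the GENCODE annotation. The count table held 62086 gene identifiers, all paired with a symbol, and 1005 lines with no gene name, which were left out. The largest of these lay among the closing lines of the table and took 49.3% to 50.1% of all counts. The unnamed lines before the closing ones held 0.192% to 0.21% of the counts left without the closing lines. What the closing lines tally is not stated, and nothing shows that they are genes.

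Counts of all 8 libraries in 4 groups were fitted as deposited with edgeR 4.0.16 in R 4.3.3 (filterByExpr, TMM, glmQLFit and glmQLFTest, Benjamini-Hochberg adjustment), which left 20165 genes and a common biological coefficient of variation of 5.53%. The contrasts were anti-M8nAb against IgG at 24 h, and the difference between that response and the one at 12 h. The filter acts over all groups, so a gene may pass through one group in which it is high. Replicates differed by more than sampling noise (chi-square per gene of 2.23 to 4.21), so none was counted as a duplicate. Samples were grouped by their labels. The alternatives were DESeq2 1.42.0, limma 3.58.1 on log2(FPKM + 1) and log2(FPKM + 0.1) with a mean FPKM of at least 0.5, other filters and scalings, a replicate block, each library left out in turn, and an offset for GC content, and the fit was tested on simulated data.

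The genes and the 64 gene lists were chosen with earlier results of these data known. Genes were named by rule: the 15 largest folds on each side among protein-coding genes with a mean of at least 1 CPM at 24 h and arms that did not overlap, the 10 largest gains and losses in CPM, the 10 smallest p a side for the difference between times, up to 4 members a side of each list, 5 long non-coding RNAs a side, and the genes the study is about. Other genes named in the text were chosen after their values were seen, as were the motifs shown out of 13 searched. Overlap with a gene on the other strand is the share of exon bases, given from 10% up. A few genes are not reported here.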

Additional observations from a re-analysis of the deposited data

Results flagged for a closer look

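The response to anti-M8nAb at 24 h differed from that at 12 h by a test of the difference itself (edgeR, adjusted p under 0.05) in 1167 genes where it was more positive and in 1319 where it was more negative. Of the genes named in the text, 112 were among them. As the log2 fold change at 24 h minus that at 12 h, the metallothioneins had the largest differences in the positive direction among the 20 genes with the smallest p, with 2.97 for MT1E, 2.82 for MT1G, 2.50 for MT1X and 2.23 for MT2A. FLNC had 2.20, CCN2 1.38, CCN1 1.21, TAGLN 1.11, VIM 1.02 and HSPA5 0.92. In the negative direction ZNF549 had -1.99, PRICKLE1 -1.85, ID1 -1.73, ZNF551 -1.50, EIF5 -1.39, OTX2 -1.24, ZIC5 -1.16, ZNF134 -1.11, ZNF398 -1.06 and BCLAF1 -0.82. Groups of 2 libraries cannot be searched for a library that stands apart from the rest of its group.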

How the results depend on the processing

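With limma on FPKM fewer genes passed both thresholds at 24 h: 211 higher and 236 lower on log2(FPKM + 1), 440 higher and 713 lower on log2(FPKM + 0.1), and 190 and 220 on log2(FPKM + 1) with no filter. Without the threshold on the fold 4270 were higher and 4296 lower, and among protein-coding genes alone 586 were higher. With no filter on low counts the response was more positive at 24 h in 561 genes and more negative in 667. Leaving out 1 library in turn gave 775 to 1040 genes higher and 846 to 1005 lower at 24 h, and 625 to 1052 and 827 to 1177 for the difference between the times, with the lowest of the latter without the first IgG library at 12 h. The cause of these shifts was not tested. Correcting each library for its own GC trend, an alternative chosen after seeing the data, gave 973 higher and 918 lower. Same-numbered libraries did not deviate together (correlation of deviations -0.0452 at 24 h and 0.0209 at 12 h). This gives no sign of pairing but cannot settle whether the numbers pair the libraries. A replicate block gave 937 higher and 961 lower, and 1093 and 1230 for the difference.

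Of the 190 genes named in the text, 176 passed the adjusted p, none of them reversed under the alternatives run, and 20 lost the call under at least 1 alternative. Those 20 had small changes or low counts and were ANLN, ATF4, BUB1B, CKS1B, DDB2, DNM2, FHL1, FLNA, FOS, HSP90B1, ITGB1, JUNB, KRT8, MFGE8, MID1IP1, MT-CO1, SCARF1, TEAD4, YAP1 and ZMAT3. Of the genes that had not passed, FADS1, MVK, PMVK, SREBF1 and TM7SF2 passed under at least 1 alternative. The median changed sign under at least 1 alternative in 22 of the 64 lists, among them those of MFGE8 and its partners, integrins, core pluripotency, and the Wnt and BMP pathways. With 2 libraries a side and 1 cell line, the spread between cultures or lines is not measured, and genes below the filter were not tested.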
